A study of Mus musculus with 9 samples.

Results

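The 9 genes described here are the ligand genes Tgfb1 and Tgfb3, the ligand-processing enzyme gene Furin, the receptor genes Tgfbr1, Tgfbr2 and Tgfbr3, and the signalling SMAD genes Smad2, Smad3 and Smad4. They were chosen by symbol from the array's gene annotation, and they are 9 of the 18193 genes with a probe set of their own. They are covered by 20 probe sets in all. Each gene is reported by its brightest probe set over the 9 arrays, called its main probe set, and the others serve as a check. All values are RMA expression values on the log2 scale, from Affymetrix Mouse Genome 430 2.0 arrays.

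The arrays hold 3 groups of mouse CD4 T cells, with 3 biological replicates each, and the study compared regulatory T cells induced in culture by TGFβ from different sources. CD4+EGFP- cells, which do not yet express Foxp3, were sorted from the spleens of Foxp3-EGFP reporter mice on the C57BL/6 (B6) background. Both groups of induced cells (iTreg) were cultured for 72 h in IL2 at 100 U/ml. They were stimulated by anti-CD28 at 1 µg/ml and by anti-CD3 coated on the plate at 2.5 µg/ml. The pltTGFβ_iTreg group (platelet TGFβ) also received freeze/thaw lysates of platelets from wild type C57BL/6 mice, whose TGFβ1 content was measured by ELISA but whose added dose the labels do not give. The purTGFβ_iTreg group (purified TGFβ) received purified TGFβ1 at 5 ng/ml, and the Tconv group (conventional T cells) is the one the study set both against. Culture time, IL2 and stimulation are recorded for the iTreg groups only. A treatment note shared by all samples says that Tconv cells were cultured with TGFβ1. What the Tconv cells received, and whether they were cultured and stimulated alike, is therefore not settled here. The labels do not say whether the induced cells were sorted for the reporter before RNA extraction, nor whether animals were pooled.

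TGFβ is made as a precursor that proprotein convertases such as furin cleave, and it leaves the cell in a latent complex. The freed ligand binds the type II receptor TGFBR2, helped in many cells by the co-receptor TGFBR3 (betaglycan). TGFBR2 then activates the type I receptor TGFBR1 (ALK5), which phosphorylates SMAD2 and SMAD3. These join SMAD4 and act on genes in the nucleus. In CD4 T cells this pathway, together with IL2, is known for inducing Foxp3 and for restraining activation.

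RefSeq (assembly GRCm38.p6) gave the 250 bases before an annotated start for 5 of the 9 genes, in 7 windows. One window of each of the 5 genes is printed, the most upstream where a gene had 2, since each of these genes was called in at least 1 comparison below. Capitals mark the letters CAGAC or GTCTG, the SMAD box, and GGGCGG or CCGCCC, the GC box, searched on both strands. The windows are chr4:47352972-47353221 on the plus strand for the first Tgfbr1 start, chr9:116175364-116175613 on the minus strand for Tgfbr2, chr7:25686752-25687001 on the plus strand for Tgfb1, chr9:63757995-63758244 on the minus strand for Smad3, and chr7:80405437-80405686 on the minus strand for the first Furin start. Each is written 5′ to 3′ in the direction of transcription.
Tgfbr1: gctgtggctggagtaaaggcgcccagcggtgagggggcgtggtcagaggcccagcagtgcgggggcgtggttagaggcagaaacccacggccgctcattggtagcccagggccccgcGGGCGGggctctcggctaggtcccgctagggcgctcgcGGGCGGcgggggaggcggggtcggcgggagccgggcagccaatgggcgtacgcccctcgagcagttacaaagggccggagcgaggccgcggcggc
Tgfbr2: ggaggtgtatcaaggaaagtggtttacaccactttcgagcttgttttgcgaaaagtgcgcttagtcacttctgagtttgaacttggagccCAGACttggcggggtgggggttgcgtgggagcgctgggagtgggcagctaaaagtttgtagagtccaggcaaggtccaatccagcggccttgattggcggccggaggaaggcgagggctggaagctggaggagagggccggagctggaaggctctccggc
Tgfb1: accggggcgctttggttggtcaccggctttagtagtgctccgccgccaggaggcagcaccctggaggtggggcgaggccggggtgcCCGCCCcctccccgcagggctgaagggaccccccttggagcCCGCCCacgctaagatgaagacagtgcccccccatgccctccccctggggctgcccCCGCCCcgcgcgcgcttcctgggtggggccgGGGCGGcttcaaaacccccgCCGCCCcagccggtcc
Smad3: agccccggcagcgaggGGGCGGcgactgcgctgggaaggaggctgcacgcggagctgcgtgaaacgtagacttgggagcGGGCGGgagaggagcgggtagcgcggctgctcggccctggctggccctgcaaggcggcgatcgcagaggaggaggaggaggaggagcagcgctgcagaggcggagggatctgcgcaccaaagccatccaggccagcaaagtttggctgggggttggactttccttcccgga
Furin: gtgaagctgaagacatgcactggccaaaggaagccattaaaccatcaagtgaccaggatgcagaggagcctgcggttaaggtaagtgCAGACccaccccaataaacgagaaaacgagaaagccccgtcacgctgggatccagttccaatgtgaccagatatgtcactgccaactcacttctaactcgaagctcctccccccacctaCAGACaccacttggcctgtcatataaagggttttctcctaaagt
The Tgfbr1 window held 2 GC boxes and 0 SMAD boxes, while its second annotated start had 1 SMAD box and 0 GC boxes. Tgfbr2 had 1 SMAD box, 160 bases before the start, and 0 GC boxes. The Tgfb1 window held 5 GC boxes and that of Smad3 held 2, with 0 SMAD boxes in either. The Furin window held 2 SMAD boxes and 0 GC boxes, and that of its second start 1 SMAD box and 2 GC boxes. Across 32851 windows of the same length from 27025 genes, 42.2% held a SMAD box and 32.7% a GC box. A match is only a match of letters.

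Arrays of a group correlated at 0.994 to 0.998, both iTreg groups with each other at 0.993 to 0.995, and either iTreg group with Tconv at 0.956 to 0.970 (Pearson's r over all probe sets). The T cell markers measured, 7 of 8 listed, averaged 10.20 to 10.25 log2 units per gene in pltTGFβ_iTreg arrays, 10.05 to 10.12 in purTGFβ_iTreg arrays and 10.36 to 10.55 in Tconv arrays. The Foxp3 probe set averaged 3.86 ± 0.038 in pltTGFβ_iTreg cells, 3.77 ± 0.082 in purTGFβ_iTreg cells and 3.79 ± 0.12 in Tconv cells (SD, n = 3 each) and was not called in any comparison. These values are low and may be background, so they do not show whether Foxp3 was induced. Xist, expressed from the inactive X of female cells, averaged 3.94 in pltTGFβ_iTreg and 3.61 in purTGFβ_iTreg cells, against 10.81 in Tconv cells. The Y-linked Eif2s3y averaged 8.95 in pltTGFβ_iTreg and 9.01 in purTGFβ_iTreg cells, against 2.70 in Tconv cells. The sex of the animals therefore ran with the comparisons against Tconv. So did the culture, stimulation and IL2 recorded for the iTreg groups only. The effects of these, of sex and of TGFβ cannot be told apart there. All 9 genes of interest are autosomal. Among platelet and megakaryocyte markers, 10 of 11 listed were measured and their log2 values summed to 43.9 to 45.1 in pltTGFβ_iTreg, 42.3 to 43.4 in purTGFβ_iTreg and 48.1 to 49.1 in Tconv arrays. The median log2 difference of these markers in pltTGFβ_iTreg minus purTGFβ_iTreg was 0.009. The integrin gene Itgb3 was the 1 of them called higher in pltTGFβ_iTreg than in purTGFβ_iTreg cells (by 1.75 log2 units). It averaged 6.03 in pltTGFβ_iTreg and 4.28 in purTGFβ_iTreg cells, and was highest in Tconv cells, at 7.29. The part of platelets or megakaryocytes in any result was not tested.

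A gene was called when limma's adjusted p (Benjamini-Hochberg over 45037 probe sets) was under 0.1 and the log2 difference exceeded 0.5 in size, a 1.4-fold change, the thresholds the study's design states. Against Tconv, pltTGFβ_iTreg cells had 4 of the 9 genes called higher (Tgfbr1, Tgfbr3, Furin and Smad2), 1 called lower (Tgfb1) and 4 not called. The background over all 18193 genes was 13.9% called higher and 14.7% called lower, 28.5% in all. In purTGFβ_iTreg cells 4 of the 9 were called higher than in Tconv (Tgfbr1, Tgfbr2, Furin and Tgfbr3), 2 were called lower (Tgfb1 and Smad3) and 3 were not called, where 14.5% of all genes were called higher and 14.9% lower, 29.3% in all. Between pltTGFβ_iTreg and purTGFβ_iTreg cells, 0 of the 9 were called higher and 1, Tgfbr2, was called lower, against 1.54% and 2.57% of all genes, 4.11% in either direction. At an unadjusted limma p under 0.05, 3 of the 9 were higher and 2 lower in that last comparison. The largest of these rises was 0.44 (Smad3), under 0.5. An unmoderated contrast per probe set uses the same differences, so it could call none of the 9 higher. Both comparisons with Tconv share the same 3 Tconv arrays. After quantile normalisation, 38.4% of the genes called in pltTGFβ_iTreg against Tconv were higher, where the deposited values gave 48.5%, and in purTGFβ_iTreg against Tconv 38.6%, where the deposited values gave 49.3%. With array medians centred instead, those shares were 55.3% for pltTGFβ_iTreg and 56.5% for purTGFβ_iTreg. RNA came from bulk cultures, so fewer cells of a type and less RNA per cell cannot be told apart.

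**Figure D1:**
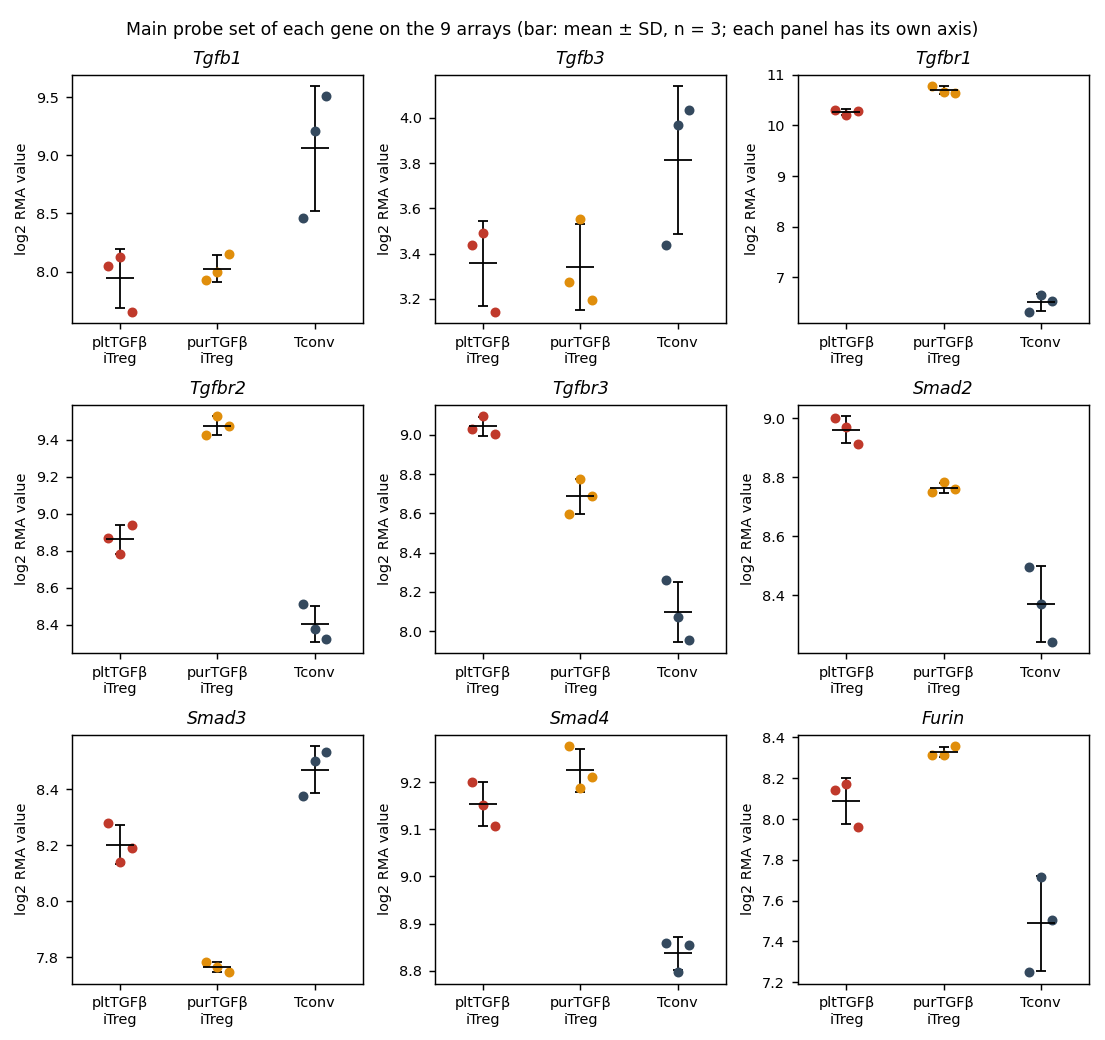
Log2 RMA value of the main probe set of each of the 9 genes (vertical axis, a separate scale in each panel) on every pltTGFβ_iTreg, purTGFβ_iTreg and Tconv array; bars give the mean ± SD of 3 arrays. Tgfbr1 lies between 10.20 and 10.78 on the 6 iTreg arrays and between 6.32 and 6.66 on the Tconv arrays, and Tgfb1 lies lower on every iTreg array than on any Tconv array.

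The ligand gene Tgfb1 fell in both iTreg groups relative to Tconv, while the gene of the enzyme that processes the precursor, Furin, rose. Tgfb1 measured 8.05, 8.12 and 7.65 log2 units in pltTGFβ_iTreg arrays and 7.93, 7.996 and 8.15 in purTGFβ_iTreg arrays, against 8.46, 9.21 and 9.505 in Tconv arrays. All 6 iTreg arrays were below the lowest Tconv array, and the Tconv arrays were the most spread of the 3 groups. The difference was -1.12 ± 0.22 (SE) for pltTGFβ_iTreg minus Tconv (95% interval -1.60 to -0.64, limma adjusted p = 0.00142). For purTGFβ_iTreg minus Tconv it was -1.03 ± 0.22 (95% interval -1.51 to -0.55, limma adjusted p = 0.00235). Between pltTGFβ_iTreg and purTGFβ_iTreg cells the difference was -0.08, with an interval of -0.56 to 0.40 and overlapping arrays (limma adjusted p = 0.925). The other Tgfb1 probe set gave -0.20 for pltTGFβ_iTreg and -0.10 for purTGFβ_iTreg minus Tconv, was not called, and had overlapping groups, so the fall rests on the main probe set.

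Tgfb3, which encodes another isoform of the ligand and is known for roles in T helper 17 cells, had a single probe set and low values throughout. It measured 3.44, 3.49 and 3.14 in pltTGFβ_iTreg arrays and 3.28, 3.55 and 3.19 in purTGFβ_iTreg arrays, against 3.44, 3.97 and 4.04 in Tconv arrays. The first Tconv array was inside the range of the iTreg arrays and the other 2 were above it. The differences of -0.46 (95% interval -0.81 to -0.11, limma adjusted p = 0.0365) for pltTGFβ_iTreg minus Tconv and -0.47 (95% interval -0.83 to -0.12, limma adjusted p = 0.0308) for purTGFβ_iTreg minus Tconv did not reach 0.5 in size. Without Tconv replicate 1 they were -0.65 and -0.66 and Tgfb3 was called lower in both. It was also called without pltTGFβ_iTreg replicate 2 (-0.52 for pltTGFβ_iTreg) and without purTGFβ_iTreg replicate 2 (-0.58 for purTGFβ_iTreg), and in both with array weights.

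Furin measured 8.14, 8.17 and 7.96 in pltTGFβ_iTreg arrays and 8.32, 8.31 and 8.36 in purTGFβ_iTreg arrays, against 7.25, 7.72 and 7.50 in Tconv arrays. Every iTreg array lay above every Tconv array, and the purTGFβ_iTreg arrays lay above the pltTGFβ_iTreg arrays. Furin was 1.52-fold higher in pltTGFβ_iTreg than in Tconv cells (log2 difference 0.60 ± 0.11, SE, limma adjusted p = 0.00105) and 1.79-fold higher in purTGFβ_iTreg than in Tconv cells (0.84 ± 0.11, limma adjusted p = 8.11e-05). The difference between pltTGFβ_iTreg and purTGFβ_iTreg cells, -0.24, had an interval of -0.49 to 0.01 and did not pass (limma adjusted p = 0.358). Without Tconv replicate 1 the pltTGFβ_iTreg difference was 0.48 and the call was lost, as it was after quantile normalisation (0.40).

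All 3 receptor genes were higher on every iTreg array than on any Tconv array, but their sizes and their order between the iTreg groups differed. Tgfbr1, the type I receptor kinase, measured 10.30, 10.20 and 10.29 in pltTGFβ_iTreg arrays and 10.78, 10.66 and 10.64 in purTGFβ_iTreg arrays, against 6.32, 6.66 and 6.54 in Tconv arrays. The purTGFβ_iTreg arrays were highest and the Tconv arrays lowest, with no overlap between any of the groups. The rise over Tconv was 3.76 ± 0.10 log2 units (SE, 95% interval 3.55 to 3.97, limma adjusted p = 3.17e-10) in pltTGFβ_iTreg cells and ranked 21 among the rises of all 18193 genes. In purTGFβ_iTreg cells it was 4.19 ± 0.10 (95% interval 3.98 to 4.40, limma adjusted p = 7.31e-11) and ranked 24. The pltTGFβ_iTreg minus purTGFβ_iTreg difference of -0.43 (95% interval -0.64 to -0.22) had a limma adjusted p of 0.0230 but was under the size that counts as a call.

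Both other Tgfbr1 probe sets rose as well. One gave 2.84 for pltTGFβ_iTreg minus Tconv and 3.16 for purTGFβ_iTreg minus Tconv (limma adjusted p = 1.95e-08 and 6.80e-09). The other gave 3.22 for pltTGFβ_iTreg minus Tconv and 3.61 for purTGFβ_iTreg minus Tconv (limma adjusted p = 5.73e-09 and 1.50e-09). Between pltTGFβ_iTreg and purTGFβ_iTreg cells these probe sets differed by -0.32 and -0.39, with adjusted p of 0.236 and 0.105 in limma.

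Tgfbr2, the ligand-binding type II receptor kinase, measured 8.87, 8.78 and 8.94 in pltTGFβ_iTreg arrays and 9.43, 9.53 and 9.48 in purTGFβ_iTreg arrays, against 8.51, 8.38 and 8.32 in Tconv arrays. The pltTGFβ_iTreg arrays lay between the other groups with no overlap. Relative to Tconv, the 2.10-fold rise in purTGFβ_iTreg cells (log2 difference 1.07 ± 0.08, SE) passed with a limma adjusted p of 8.42e-07. The difference of 0.46 ± 0.08 in pltTGFβ_iTreg cells (95% interval 0.28 to 0.64) had an adjusted p of 8.24e-04 in limma but did not reach 0.5. It reached 0.51 and was called without Tconv replicate 1, and also with the array medians centred (0.51). The difference between the iTreg groups was itself called: Tgfbr2 was lower in pltTGFβ_iTreg than in purTGFβ_iTreg cells by a log2 difference of -0.61 ± 0.08 (SE, 95% interval -0.80 to -0.43, limma adjusted p = 9.67e-04). A second probe set gave 0.34, 0.65 and -0.31 in these comparisons (pltTGFβ_iTreg minus Tconv, purTGFβ_iTreg minus Tconv, pltTGFβ_iTreg minus purTGFβ_iTreg), of which only the 0.65 was called. The remaining probe set read 2.36 to 2.73 on all arrays and was called in none of the 3 comparisons.

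Tgfbr3, the co-receptor betaglycan, showed the opposite order of the iTreg groups. Its values were 9.03, 9.09 and 9.003 in pltTGFβ_iTreg arrays and 8.59, 8.77 and 8.69 in purTGFβ_iTreg arrays, against 8.26, 8.07 and 7.96 in Tconv arrays. The pltTGFβ_iTreg arrays were highest and no groups overlapped. Tgfbr3 was 1.93-fold higher in pltTGFβ_iTreg than in Tconv cells (log2 difference 0.95 ± 0.09, SE, limma adjusted p = 6.63e-06) and 1.504-fold higher in purTGFβ_iTreg than in Tconv cells (0.59 ± 0.09, limma adjusted p = 2.87e-04). After quantile normalisation the purTGFβ_iTreg difference was 0.41 and no longer called. The pltTGFβ_iTreg minus purTGFβ_iTreg difference was 0.36 (95% interval 0.15 to 0.56, limma adjusted p = 0.0498), too small for a call. A second probe set, at 3.99 to 4.54 on all arrays, gave -0.07 for pltTGFβ_iTreg and -0.22 for purTGFβ_iTreg minus Tconv and was not called.

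**Figure D2:**
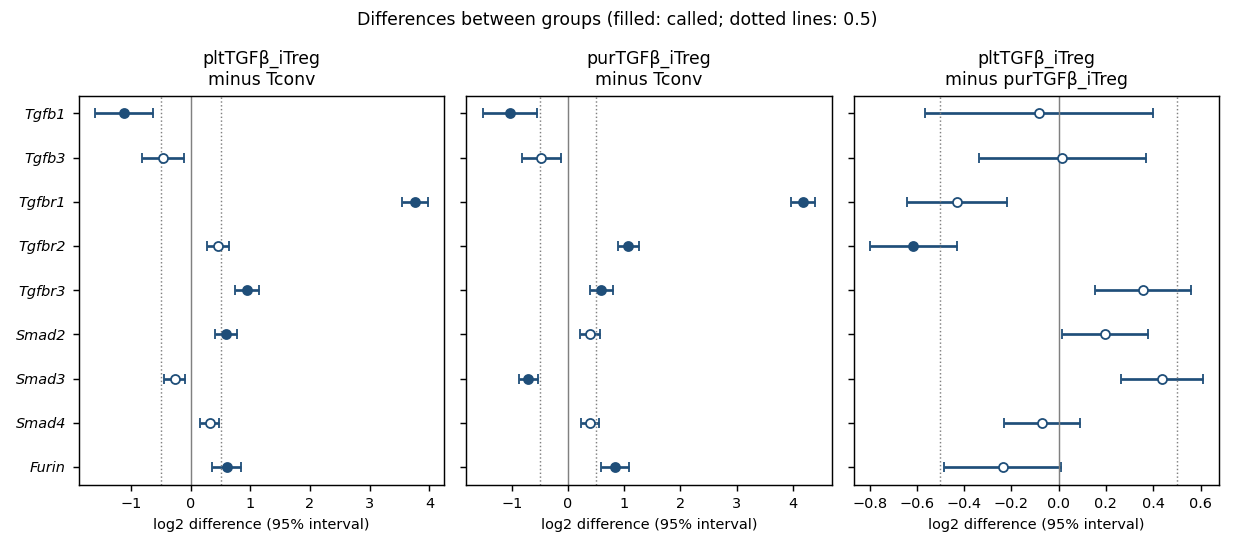
Log2 difference (horizontal axis) with its 95% interval for each of the 9 genes in pltTGFβ_iTreg minus Tconv, purTGFβ_iTreg minus Tconv and pltTGFβ_iTreg minus purTGFβ_iTreg, with filled points for called differences and dotted lines at 0.5 in either direction. Tgfbr1 stands far to the right in both comparisons with Tconv (3.76 and 4.19), and Tgfbr2 is the one filled point between the iTreg groups (-0.61).

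The SMAD genes did not move in one direction: Smad2 rose in pltTGFβ_iTreg cells, Smad3 fell in purTGFβ_iTreg cells, and Smad4 was not called. Smad2, one of the SMADs that TGFBR1 phosphorylates, measured 9.0006, 8.97 and 8.91 in pltTGFβ_iTreg arrays and 8.75, 8.78 and 8.76 in purTGFβ_iTreg arrays, against 8.497, 8.37 and 8.24 in Tconv arrays. No groups overlapped, and the pltTGFβ_iTreg arrays were highest. Smad2 was 1.51-fold higher in pltTGFβ_iTreg than in Tconv cells (log2 difference 0.59 ± 0.08, SE, limma adjusted p = 1.24e-04). In purTGFβ_iTreg minus Tconv the difference was 0.39 (95% interval 0.21 to 0.58, limma adjusted p = 0.00231) and not called, and in pltTGFβ_iTreg minus purTGFβ_iTreg it was 0.20 (95% interval 0.01 to 0.38, limma adjusted p = 0.275). The pltTGFβ_iTreg call was lost after quantile normalisation (0.44). A second Smad2 probe set, at 4.93 to 5.35 on all arrays, gave 0.18 for pltTGFβ_iTreg minus Tconv and was not called.

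Smad3, the other SMAD that TGFBR1 phosphorylates, was lower on all 6 iTreg arrays than on any Tconv array. It measured 8.28, 8.14 and 8.19 in pltTGFβ_iTreg arrays and 7.78, 7.77 and 7.75 in purTGFβ_iTreg arrays, against 8.37, 8.499 and 8.53 in Tconv arrays. The purTGFβ_iTreg arrays were lowest and the Tconv arrays highest, with the pltTGFβ_iTreg arrays between them. Smad3 fell in purTGFβ_iTreg relative to Tconv cells, by a log2 difference of -0.70 ± 0.08 (SE, 95% interval -0.88 to -0.53, limma adjusted p = 1.72e-05). The difference of -0.27 in pltTGFβ_iTreg cells (95% interval -0.44 to -0.09, limma adjusted p = 0.0161) was not called. Smad3 was 0.44 ± 0.08 log2 units higher in pltTGFβ_iTreg than in purTGFβ_iTreg cells (95% interval 0.27 to 0.61, limma adjusted p = 0.00621), again under 0.5. Of its other probe sets, one was called lower in purTGFβ_iTreg than in Tconv cells (-0.64, limma adjusted p = 5.60e-04) and one gave -0.38 (limma adjusted p = 0.0132) without a call. In pltTGFβ_iTreg minus Tconv the same probe sets gave -0.27 and -0.04, with overlapping groups and no call.

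Smad4, the partner shared with the BMP branch, measured 9.20, 9.15 and 9.11 in pltTGFβ_iTreg arrays and 9.28, 9.19 and 9.21 in purTGFβ_iTreg arrays, against 8.86, 8.80 and 8.85 in Tconv arrays. Both iTreg groups lay above Tconv and overlapped each other. The differences from Tconv were 0.32 (95% interval 0.16 to 0.48, limma adjusted p = 0.00420) in pltTGFβ_iTreg and 0.39 (95% interval 0.23 to 0.55, limma adjusted p = 0.00106) in purTGFβ_iTreg cells, neither of them called. A second probe set was called higher in purTGFβ_iTreg than in Tconv cells (0.58, limma adjusted p = 7.42e-05) and gave 0.44 in pltTGFβ_iTreg minus Tconv. Smad4 in pltTGFβ_iTreg minus purTGFβ_iTreg differed by -0.07 (95% interval -0.23 to 0.09, limma adjusted p = 0.751).

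**Figure D3:**
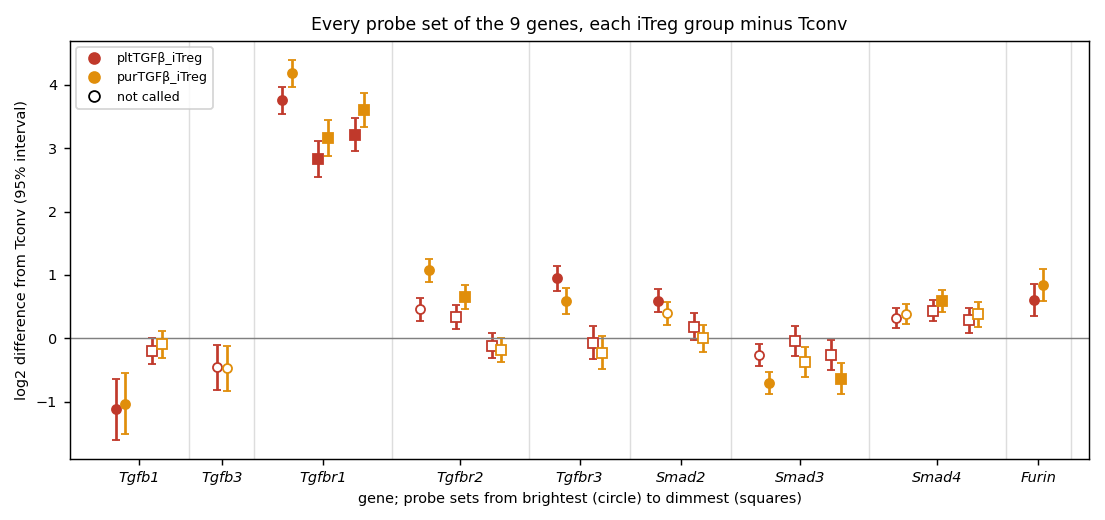
Log2 difference from Tconv of pltTGFβ_iTreg and purTGFβ_iTreg cells for each of the 20 probe sets of the 9 genes. All 3 Tgfbr1 probe sets lie between 2.84 and 4.19, while the second Tgfb1 and Tgfbr3 probe sets lie between -0.22 and -0.07.

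Over the 9 genes, the median log2 difference was 0.46 in pltTGFβ_iTreg minus Tconv and 0.39 in purTGFβ_iTreg minus Tconv, beside -0.16 for pltTGFβ_iTreg and -0.17 for purTGFβ_iTreg over all genes. In size regardless of sign, the median was 0.59 in pltTGFβ_iTreg (0.30 over all genes) and 0.70 in purTGFβ_iTreg (0.31 over all genes). Between pltTGFβ_iTreg and purTGFβ_iTreg cells the median size was 0.24, beside 0.10 over all genes. Groups did not overlap for 8 of the 9 genes in each comparison with Tconv, Tgfb3 being the exception, where 59.0% of all genes did not overlap for pltTGFβ_iTreg and 62.7% for purTGFβ_iTreg. For pltTGFβ_iTreg against purTGFβ_iTreg, 6 of the 9 did not overlap (Tgfbr1, Tgfbr2, Tgfbr3, Smad2, Smad3 and Furin), where 28.2% of all genes did not. The pltTGFβ_iTreg arrays stood above the purTGFβ_iTreg arrays for Tgfbr3, Smad2 and Smad3 and below them for Tgfbr1, Tgfbr2 and Furin.

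Replicate spread within a group ran from an SD of 0.046 (Smad2) to 0.25 (Tgfb1) in pltTGFβ_iTreg cells, with a median of 0.070. It ran from 0.018 (Smad2) to 0.19 (Tgfb3) in purTGFβ_iTreg cells, with a median of 0.051. In Tconv cells it ran from 0.035 (Smad4) to 0.54 (Tgfb1), with a median of 0.15. Over all genes the median SD was 0.091 in pltTGFβ_iTreg, 0.088 in purTGFβ_iTreg and 0.13 in Tconv cells. The Tgfb1 difference from Tconv thus carries the widest interval of the 9.

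The genes whose profile over the 9 arrays was nearest to that of Tgfbr1, by the root mean square difference of log2 values centred on each gene's mean, were Socs2 (0.123), Vim (0.174), Adam19 (0.174) and St8sia4 (0.205). Socs2 encodes a suppressor of cytokine signalling and Vim the intermediate filament vimentin. Adam19 encodes a membrane metalloprotease and St8sia4 a polysialyltransferase. Their differences from Tconv ran from 3.55 (Adam19) to 4.13 (Vim) in pltTGFβ_iTreg cells and from 3.97 (St8sia4) to 4.5 (Vim) in purTGFβ_iTreg cells. Pearson's r with Tgfbr1 over the 9 arrays was 0.994 to 0.999 and is only a description, since the iTreg and Tconv arrays fall into separate clusters.

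The genes nearest to Tgfb1 were Zyx (0.0760), which encodes the focal adhesion protein zyxin, Calcoco1 (0.0969), Pex6 (0.10) and Bak1 (0.107). Pex6 encodes a peroxisome assembly ATPase and Bak1 a pro-apoptotic BCL2 family member. Their differences from Tconv were between -1.19 and -1.10 in pltTGFβ_iTreg cells and between -1.06 and -0.98 in purTGFβ_iTreg cells, with r of 0.983 to 0.992 with Tgfb1. Their SD among the Tconv arrays was 0.40 to 0.46, against 0.54 for Tgfb1.

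**Figure D4:**
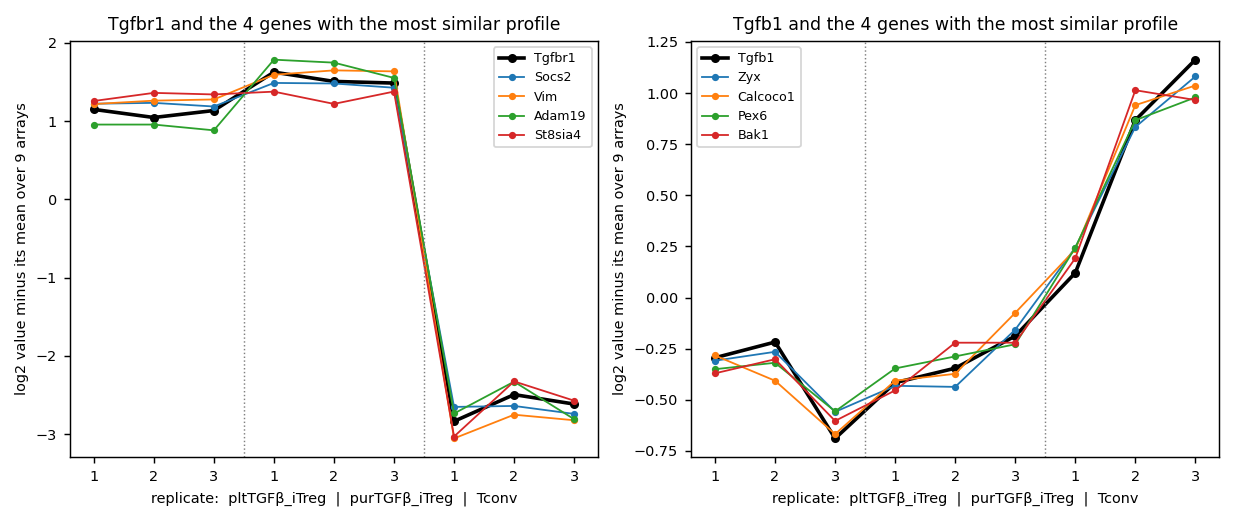
Log2 values, centred on each gene's mean over the 9 arrays, of Tgfbr1 and of Tgfb1 with the 4 genes nearest to each (vertical axis), for the 3 pltTGFβ_iTreg, 3 purTGFβ_iTreg and 3 Tconv arrays (horizontal axis); lines only join the points of one gene. The Tgfbr1 set steps down between iTreg and Tconv arrays, and the Tgfb1 set steps up with spread among the Tconv arrays.

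Around the 9 genes, 77 of 79 listed genes of the wider pathway were measured. In pltTGFβ_iTreg against Tconv 23 were called higher and 7 lower, in purTGFβ_iTreg against Tconv 27 higher and 11 lower, and in pltTGFβ_iTreg against purTGFβ_iTreg 3 higher and 10 lower. The share of all genes called in either direction in these comparisons was 28.5%, 29.3% and 4.11%. Against Tconv, the shares of the ligand latency list (30.8% in pltTGFβ_iTreg, 23.1% in purTGFβ_iTreg) and of the SMAD partner list (31.2% in each) were near it, as was that of the other receptors in pltTGFβ_iTreg (25.0%; 41.7% in purTGFβ_iTreg). The inhibitors had 41.7% called in pltTGFβ_iTreg and 75.0% in purTGFβ_iTreg, the TGFβ-responsive genes 58.8% in pltTGFβ_iTreg and 76.5% in purTGFβ_iTreg, and the non-SMAD branch 5 and 6 of 10 genes. Skil, Smad7 and Pmepa1 stand in both the inhibitor and the TGFβ-responsive list, so the shares of these lists are partly the same genes. The median log2 difference of the 77 genes was -0.02 in pltTGFβ_iTreg minus Tconv, 0.10 in purTGFβ_iTreg minus Tconv and -0.05 in pltTGFβ_iTreg minus purTGFβ_iTreg.

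Upstream of the receptors, 13 of 14 genes of ligand latency and activation were measured. In pltTGFβ_iTreg against Tconv 1 was called higher and 3 lower, and in purTGFβ_iTreg against Tconv 1 higher and 2 lower. Itgav, the integrin αv chain of dimers that release latent TGFβ, was higher in both (2.04 in pltTGFβ_iTreg, 1.81 in purTGFβ_iTreg), though its second probe set was not called. The integrin β chain genes Itgb6 and Itgb8, also on this list, had low group means of 2.34 to 2.81 and were not called in any comparison. Ltbp3, a latent TGFβ binding protein, was lower (-1.08 in pltTGFβ_iTreg, -1.21 in purTGFβ_iTreg), as was Nrros, which tethers latent TGFβ1 to the cell surface (-0.73 in pltTGFβ_iTreg, -1.42 in purTGFβ_iTreg). Ltbp4 was lower in pltTGFβ_iTreg cells (-0.51), a call lost without any one of pltTGFβ_iTreg replicates 2 (-0.47) and 3 (-0.50) and Tconv replicate 1 (-0.37); in purTGFβ_iTreg minus Tconv it was -0.43, called only without Tconv replicate 3 (-0.53). Of the 13, 1 was higher in pltTGFβ_iTreg than in purTGFβ_iTreg cells, Nrros (0.69 ± 0.09, SE, limma adjusted p = 5.07e-04).

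Among 12 other receptors of the superfamily, 3 were called higher and 0 lower in pltTGFβ_iTreg against Tconv (at an unadjusted limma p under 0.05, 4 higher and 3 lower), and 4 higher and 1 lower in purTGFβ_iTreg against Tconv. Bmpr2, the type II BMP receptor, averaged 7.85 in pltTGFβ_iTreg and 8.82 in purTGFβ_iTreg cells, against 4.16 in Tconv cells. Its difference was 3.69 in pltTGFβ_iTreg minus Tconv (limma adjusted p = 1.65e-09) and 4.66 in purTGFβ_iTreg minus Tconv (limma adjusted p = 1.56e-10). The activin type II receptor gene Acvr2a was also higher (2.37 in pltTGFβ_iTreg, 2.61 in purTGFβ_iTreg), and the BMP type I receptor gene Bmpr1a rose by 0.57 in pltTGFβ_iTreg and 0.79 in purTGFβ_iTreg cells. The Bmpr1a call in pltTGFβ_iTreg was lost without Tconv replicate 3 (0.34). Bmpr2 was lower in pltTGFβ_iTreg than in purTGFβ_iTreg cells (-0.97), and a second Bmpr2 probe set gave -0.89. Acvr1b, the activin type I receptor, gave 1.10 in purTGFβ_iTreg minus Tconv and -0.62 in pltTGFβ_iTreg minus purTGFβ_iTreg, both called, but its second probe set gave -0.34 and 0.02 and was not called. Its 0.49 in pltTGFβ_iTreg minus Tconv became a call without pltTGFβ_iTreg replicate 1 or without Tconv replicate 2 (0.50 in each). Amhr2, the anti-Müllerian hormone receptor, was the 1 called lower in purTGFβ_iTreg cells (-0.52), a call lost without purTGFβ_iTreg replicate 3 (-0.46) or Tconv replicate 1 (-0.42); in pltTGFβ_iTreg minus Tconv it was -0.46, called without pltTGFβ_iTreg replicate 1 (-0.61) or Tconv replicate 3 (-0.55).

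Of 16 other SMADs, SMAD partners and modifiers, 4 were called higher and 1 lower in each comparison with Tconv. Usp15, a deubiquitinase that acts on the pathway, gave 1.81 in pltTGFβ_iTreg and 1.70 in purTGFβ_iTreg cells, but a second probe set gave 0.02 and -0.07. The ubiquitin ligase genes Trim33 (1.30 in pltTGFβ_iTreg, 1.35 in purTGFβ_iTreg) and Rnf111 (0.72 in pltTGFβ_iTreg, 0.66 in purTGFβ_iTreg) were higher than in Tconv. Hgs, an endosomal adaptor, was lower (-0.60 in pltTGFβ_iTreg, -0.55 in purTGFβ_iTreg), though in purTGFβ_iTreg cells the call was lost without purTGFβ_iTreg replicate 1 (-0.47) or Tconv replicate 3 (-0.48). For pltTGFβ_iTreg against purTGFβ_iTreg, limma called 0 of the 16, with 3 higher and 1 lower at an unadjusted p under 0.05.

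Of 12 inhibitors of the pathway, 8 were called higher and 1 lower in purTGFβ_iTreg than in Tconv cells, where pltTGFβ_iTreg cells had 5 higher and 0 lower (6 higher and 3 lower at an unadjusted limma p under 0.05). In pltTGFβ_iTreg against purTGFβ_iTreg 0 were higher and 4 were lower (2 higher and 8 lower at an unadjusted limma p under 0.05). Ldlrad4, which restrains SMAD phosphorylation, averaged 5.93 ± 0.040 in pltTGFβ_iTreg and 7.81 ± 0.092 in purTGFβ_iTreg cells, against 3.84 ± 0.30 in Tconv cells (SD, n = 3 each). It was lower in pltTGFβ_iTreg than in purTGFβ_iTreg cells by a log2 difference of -1.87 ± 0.13 (SE, limma adjusted p = 4.93e-06), and its second probe set gave -1.58. Smurf1, a ubiquitin ligase for the receptor complex, averaged 6.22 ± 0.082 in pltTGFβ_iTreg and 6.96 ± 0.23 in purTGFβ_iTreg cells (SD, n = 3 each), a difference of -0.74 (limma adjusted p = 0.00185). The inhibitory SMAD gene Smad7 and the feedback gene Pmepa1 were the other 2 called lower in pltTGFβ_iTreg than in purTGFβ_iTreg cells (-0.83 and -0.56). Wwp1, another ubiquitin ligase, was higher than in Tconv in pltTGFβ_iTreg (1.78) and purTGFβ_iTreg cells (1.41), and Skil, a SMAD corepressor, likewise (2.60 in pltTGFβ_iTreg, 3.04 in purTGFβ_iTreg). The corepressor gene Tgif2 was lower in purTGFβ_iTreg than in Tconv cells (-0.68); in pltTGFβ_iTreg it gave -0.47, called without Tconv replicate 1 (-0.52).

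In the non-SMAD branch, 5 of 10 genes were called higher in each comparison with Tconv, with 0 lower in pltTGFβ_iTreg (2 lower at an unadjusted limma p under 0.05) and 1 lower in purTGFβ_iTreg. Map3k7, the kinase TAK1, gave 1.54 in pltTGFβ_iTreg and 1.92 in purTGFβ_iTreg cells, and its adaptor gene Tab3 gave 2.37 in pltTGFβ_iTreg and 2.19 in purTGFβ_iTreg. Traf6, a ubiquitin ligase that activates TAK1, gave 1.34 in pltTGFβ_iTreg and 1.95 in purTGFβ_iTreg cells and was lower in pltTGFβ_iTreg than in purTGFβ_iTreg (-0.61, limma adjusted p = 5.10e-04). The second Traf6 probe set gave -0.40 there and was not called. Tab1, the other adaptor named, gave -0.53 in purTGFβ_iTreg minus Tconv, a call lost without purTGFβ_iTreg replicate 1 (-0.47), Tconv replicate 2 (-0.49) or Tconv replicate 3 (-0.44). In pltTGFβ_iTreg minus Tconv it gave -0.48 and was called without pltTGFβ_iTreg replicate 1 (-0.54) or Tconv replicate 1 (-0.62).

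TGFβ-responsive genes did not move as one list: of 17 measured, 7 were higher and 3 lower in pltTGFβ_iTreg than in Tconv, and 8 higher and 5 lower in purTGFβ_iTreg than in Tconv. The ectoenzyme gene Nt5e (CD73) gave 5.27 in pltTGFβ_iTreg and 6.19 in purTGFβ_iTreg cells, and the transcription factor gene Klf10 gave 2.23 in pltTGFβ_iTreg and 2.85 in purTGFβ_iTreg. Lower than in Tconv were Junb, an AP-1 subunit (-1.19 in pltTGFβ_iTreg, -1.49 in purTGFβ_iTreg), Id3, an inhibitor of E proteins (-1.04 in pltTGFβ_iTreg, -0.89 in purTGFβ_iTreg), and the cell cycle inhibitor gene Cdkn1a (-0.60 in pltTGFβ_iTreg, -0.93 in purTGFβ_iTreg). In pltTGFβ_iTreg against purTGFβ_iTreg 2 were higher and 5 lower. Gadd45b, a stress-response gene, was higher in pltTGFβ_iTreg than in purTGFβ_iTreg cells by 1.41 ± 0.11 (SE, limma adjusted p = 1.98e-05). Against Tconv it was higher in pltTGFβ_iTreg (0.82) and lower in purTGFβ_iTreg cells (-0.59, a call lost without purTGFβ_iTreg replicate 2, at -0.50). Id2, another inhibitor of E proteins, was also higher in pltTGFβ_iTreg than in purTGFβ_iTreg cells (0.70). Itgae, the integrin chain CD103, was lower in pltTGFβ_iTreg than in purTGFβ_iTreg cells (-1.18, limma adjusted p = 1.17e-05), with 4.82 ± 0.12 in pltTGFβ_iTreg, 6.00 ± 0.051 in purTGFβ_iTreg and 4.53 ± 0.10 in Tconv cells (SD, n = 3 each), and its second probe set gave -1.997.

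**Figure D5:**
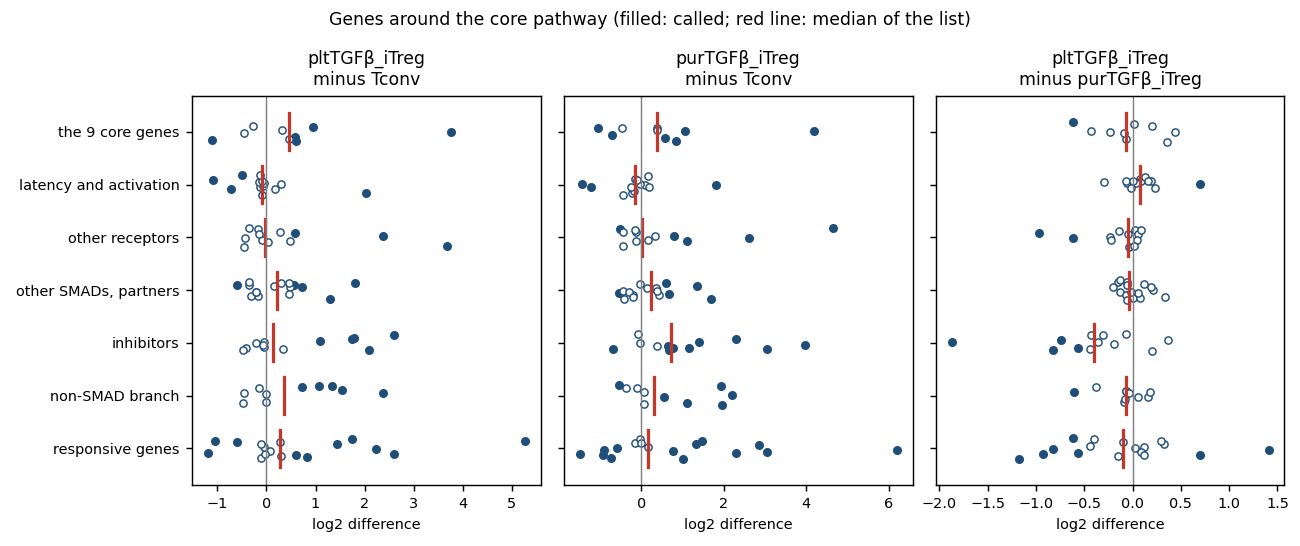
Log2 difference (horizontal axis) of each measured gene of the 6 lists around the core pathway, for pltTGFβ_iTreg minus Tconv, purTGFβ_iTreg minus Tconv and pltTGFβ_iTreg minus purTGFβ_iTreg; filled points are called and the red line is the list's median. In the third panel the called inhibitors all lie below 0 (4 of 12 genes).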

How the data were processed

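The deposited values are log2 expression values, 1 per probe set and array. The authors analysed the array images with Affymetrix Expression Console and normalised them by RMA (robust multichip analysis), per the series' design text deposited with the data. Partek is named in the submitters' processing notes. Depth has no meaning for arrays, and 3 arrays a group limit the precision. No detection calls were used, so low values may be background.

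Of 45101 probe sets, 64 controls were left out. The array's gene annotation gave 34945 of the rest 1 symbol, 932 several and 9160 none here; no symbol needed updating. limma 3.58.1 (R 4.3.3) fitted 1 model of group means over all 9 arrays, with Benjamini-Hochberg adjustment over 45037 probe sets, and was tested on simulated data. A gene was called at an adjusted p under 0.1 and a log2 difference above 0.5 in size, and 95% intervals are limma's. An exact permutation test of 3 arrays against 3 cannot go below p = 0.1 and was not used. Replicates are called biological, but whether they came from separate animals is not stated, so p-values measure the spread between these samples. All fold changes are powers of 2 of RMA differences, which compress large changes. Tables were handled with Python 3.11.15 and pandas 2.3.3 and drawn with matplotlib 3.10.9.

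Named genes were the 9 genes, up to 3 called higher and 3 lower per pathway list and comparison with the largest differences, and the 4 nearest profiles to Tgfbr1 and to Tgfb1, leaving out predicted and clone names. Second probe sets, sex and marker genes were checks, and a few further values were named after they were seen. Of the myeloid markers (8 of 8 measured) limma called 0 in any comparison, with 5 lower in each iTreg group than in Tconv at an unadjusted p under 0.05. Log2 values of the B cell markers (4 of 5) averaged 3.79 to 4.11 in pltTGFβ_iTreg, 3.86 to 4.14 in purTGFβ_iTreg and 4.37 to 4.48 in Tconv arrays. Cd79b was called lower than in Tconv (-1.65 in pltTGFβ_iTreg, -1.46 in purTGFβ_iTreg), and the other 3 were not called. CD8 and NK markers (5 of 6) averaged 5.97 to 6.16 in pltTGFβ_iTreg, 6.42 to 6.51 in purTGFβ_iTreg and 5.92 to 6.03 in Tconv arrays. Klrd1 was called higher than in Tconv (1.90 in pltTGFβ_iTreg, 3.17 in purTGFβ_iTreg). Cd8b1 was called lower (-1.04 in pltTGFβ_iTreg, -0.98 in purTGFβ_iTreg), and 3 were not called. Klrd1 was lower in pltTGFβ_iTreg than in purTGFβ_iTreg cells (-1.27). Regulatory T cell markers (5 of 5) averaged 8.69 to 8.72 in pltTGFβ_iTreg, 8.50 to 8.58 in purTGFβ_iTreg and 7.47 to 7.53 in Tconv arrays. The genes and lists were chosen with earlier results of these data known. Alternatives were other normalisations, probe sets, thresholds, variance models, a replicate block and leaving out each array.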

Additional observations from a re-analysis of the deposited data

How the results depend on the processing

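Of the log2 differences of the 9 genes under the alternatives, 517 kept their side of the threshold without a called value changing sign, 20 lost the call, 19 gained it and 2 reversed; of the other named genes' differences, 1893 did so, 68 lost the call, 24 gained it and 4 reversed. Members called higher in pltTGFβ_iTreg than in Tconv were 4, but 2 after quantile normalisation, 2 with probe sets averaged per gene, 1 with the next brightest probe set and 1 at an adjusted p under 0.05 with a difference above 1. Furin and Tgfb3 have no other probe set, so counts with the next brightest probe set leave them out. Those called lower there were 1, but 2 with array weights, 0 with the next brightest probe set and 3 with no fold threshold. With no fold threshold, Tgfbr2 and Smad4 were also called higher in pltTGFβ_iTreg than in Tconv. In purTGFβ_iTreg against Tconv the 4 called higher became 2 at the stricter threshold, and the 2 called lower became 0 with the next brightest probe set and 1 at the stricter threshold. There, no fold threshold added Smad2 and Smad4 to the genes called higher and Tgfb3 to those called lower. Smaller changes of the counts are not all listed here. With array medians centred, Tgfbr2 was also called higher in pltTGFβ_iTreg than in Tconv. For purTGFβ_iTreg against Tconv, Tgfbr3 lost its call after quantile normalisation, and Tgfb3 was called lower with array weights. In pltTGFβ_iTreg against purTGFβ_iTreg the 0 called higher became 2 with no fold threshold, and the 1 called lower became 0 with probe sets averaged, 0 with the next brightest probe set, 2 with no fold threshold and 0 at the stricter threshold. Leaving out each array in turn gave 4 to 4 higher and 1 to 2 lower in pltTGFβ_iTreg against Tconv, 4 to 4 higher and 2 to 3 lower in purTGFβ_iTreg against Tconv, and 0 to 0 higher and 1 to 1 lower in pltTGFβ_iTreg against purTGFβ_iTreg. An equal count need not mean the same genes. Without Tconv replicate 1, Furin lost its call in pltTGFβ_iTreg against Tconv and Tgfbr2 gained one. With the next brightest probe set these reversed, with a call on at least 1 side: Tgfbr3 (-0.069 for pltTGFβ_iTreg and -0.22 for purTGFβ_iTreg minus Tconv), Smad7 (0.55 for pltTGFβ_iTreg minus Tconv, where the main probe set gave -0.06), Acvr1b (-0.34 for purTGFβ_iTreg minus Tconv and 0.023 for pltTGFβ_iTreg minus purTGFβ_iTreg) and Usp15 (-0.068 for purTGFβ_iTreg minus Tconv). Where neither value was called, 7 differences of the 9 genes and 14 of the other named genes also changed sign, among them Smad2 (-0.0025 for purTGFβ_iTreg minus Tconv, where the main probe set gave 0.39) and Acvr1b (-0.31 for pltTGFβ_iTreg minus Tconv, where the main probe set gave 0.49), both with the next brightest probe set. The cause was not tested.

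All genes called higher and lower were 2521 and 2673 in pltTGFβ_iTreg against Tconv, 2632 and 2707 in purTGFβ_iTreg against Tconv, and 281 and 467 in pltTGFβ_iTreg against purTGFβ_iTreg. The stricter threshold gave 1281 and 558, 1416 and 617, and 71 and 98 in the same order, and the next brightest probe set, with fewer genes tested, 1648 and 903, 1715 and 907, and 113 and 220. With no fold threshold 3670 were higher and 7326 lower in pltTGFβ_iTreg than in Tconv, 3785 higher and 7757 lower in purTGFβ_iTreg than in Tconv, and 770 were higher and 998 lower in pltTGFβ_iTreg than in purTGFβ_iTreg.

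Deviations from the group means of arrays with the same replicate number correlated at 0.0919 to 0.262 between pltTGFβ_iTreg and purTGFβ_iTreg, and different numbers at -0.243 to 0.0478, so each array correlated best with its own number, as a hint from the data. Against Tconv the same numbers gave -0.0986 to 0.0852 for pltTGFβ_iTreg and -0.123 to 0.0854 for purTGFβ_iTreg, so the numbers were not taken to pair samples. With the replicate number as a block, the counts of members called were 4 higher and 1 lower, 4 higher and 2 lower, and 0 higher and 1 lower, as without it, and no call among the named genes changed.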

Other observations

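The Bmpr2 main probe set read 7.85 on all 3 pltTGFβ_iTreg arrays to every deposited digit, so its spread in that group was 0. Of 45037 probe sets, 342 (0.759%) in pltTGFβ_iTreg, 344 (0.764%) in purTGFβ_iTreg and 142 (0.315%) in Tconv had 1 value repeated on all 3 arrays of the group. At least 2 equal values occurred in 10.3%, 10.6% and 5.11% of probe sets in the same groups. Among the 20 probe sets of the TGFβ ligand, receptor and SMAD genes this held for 2 in pltTGFβ_iTreg, 0 in purTGFβ_iTreg and 1 in Tconv, and for 0 of the 9 main ones in any group.

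Tconv replicate 1 lay nearer than the mean of the other 2 Tconv arrays to the iTreg mean for 7 of the 9 genes, where replicates 2 and 3 did so for 3 each. Over the 6246 genes called in either comparison with Tconv the shares were 62.2%, 48.9% and 35.7% for replicates 1, 2 and 3. Tgfb1, at 8.46, 9.21 and 9.505 on Tconv arrays, and Tgfb3, at 3.44, 3.97 and 4.04, were lowest on that array. No comparison of the arrays' quality was made.

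Of the 5 listed regulatory T cell markers, Ctla4, Il2ra and Ikzf2 were higher than in Tconv in pltTGFβ_iTreg (2.36, 1.73 and 2.48) and in purTGFβ_iTreg cells (1.86, 1.68 and 2.997). Tnfrsf18 was lower than in Tconv in both (-0.63 in pltTGFβ_iTreg, -1.34 in purTGFβ_iTreg). Foxp3, at low values in all groups, was not called (0.07 in pltTGFβ_iTreg, -0.02 in purTGFβ_iTreg). Between pltTGFβ_iTreg and purTGFβ_iTreg cells, Ctla4 (0.51, limma adjusted p = 0.0102) and Tnfrsf18 (0.71, limma adjusted p = 3.03e-04) were higher and Ikzf2 (-0.52, limma adjusted p = 0.0199) was lower.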
